A study of Homo sapiens with 6 samples.

Results

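Translation initiation and elongation factors are the proteins that load messenger RNA and the initiator tRNA onto the ribosome and then carry aminoacyl-tRNAs to it as the protein chain grows. Their genes were taken by name: protein-coding genes whose symbols start with EIF1 to EIF6, EEF1 or EEF2, without the eIF2-alpha kinase genes (EIF2AK) and without pseudogenes. The rule used no measured value and gave 67 of the 60609 genes listed in each file. Of these, 62 had enough reads to be tested and 5 did not.

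The libraries were made with an mRNA kit from HEK293, a human embryonic kidney cell line. Of the 6 libraries, 3 were labelled STAT5b knock-out and 3 wild type. STAT5B was disrupted by CRISPR/Cas9, clones with mutations in both alleles were picked, and these grew in the same serum-containing medium as the wild-type cells. The growth protocol also calls the clones GS knockout clones, and both sets of sample names carry the word Sham. The labels explain neither, so the genotype of each group is taken from its label alone. No treatment is given for any group. STAT5B encodes a transcription factor that is activated by JAK kinases after growth hormone or cytokine signalling.

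Cap-dependent initiation begins when eIF4E binds the mRNA cap, eIF4G bridges the cap to the ribosome, and the eIF4A helicases open the leader. The small ribosomal subunit arrives with eIF3, eIF1, eIF1A, eIF5 and a ternary complex of eIF2, GTP and initiator tRNA, which eIF2B keeps supplied by recharging eIF2 with GTP. After start codon recognition eIF5B joins the large subunit, and eEF1A and eEF2 drive elongation.

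Total estimated counts were 17494958 to 21099813 in the knockout libraries and 17686407 to 20279181 in the wild-type libraries. Libraries of the same group were not copies of each other (chi-square per degree of freedom over genes, 2.45 to 7.50). Nothing in the labels ties the 3 libraries of a group to separate cultures or clones, and p-values then cover the spread among these samples alone, which may be technical. What sets a picked clone apart from the parental cells and what STAT5B loss does cannot be told apart here, and in bulk RNA fewer cells of a type and less RNA per cell cannot be told apart. STAT5B had 63.1, 61.8 and 60.5 CPM (counts scaled to 1000000 on TMM-adjusted library sizes) in knockout libraries, against 70.1, 64.6 and 69.4 CPM in wild-type libraries. The knockout libraries all lay below the wild-type libraries (log2 fold change −0.14, SE 0.047, edgeR adjusted p = 0.0468), and that call ended in DESeq2 (adjusted p = 0.104) and without any 1 of 5 libraries (edgeR adjusted p of 0.0610, 0.0955 and 0.0938 without knockout replicates 1, 2 and 3, and 0.160 and 0.148 without wild-type replicates 1 and 3). A count over the whole gene does not show a small mutation, so it does not check the genotype. All 8 genes chosen to mark HEK293 cells were above 1 CPM, with NEFM (log2 fold change −1.14) and CDH2 lower and VIM higher in the knockout. Markers of other cell types were at or near 0, apart from COL1A1. Their summed CPM in knockout and wild-type libraries were at most 1.10 and 1.02 for 5 haematopoietic genes (PTPRC, CD3E and HBB at 0) and at most 0.0568 and 0.169 for 4 endothelial genes (CDH5 and TEK at 0). The 5 fibroblast genes summed to 8.26 to 10.4 CPM in knockout libraries and 7.43 to 10.2 CPM in wild-type libraries.

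The 67 genes together took 2.95%, 2.96% and 3.05% of the estimated counts in knockout libraries, against 3.00%, 2.98% and 3.02% in wild-type libraries, so the groups overlapped. Levels of different genes were compared on deposited TPM (transcript abundance scaled to 1000000, which allows for gene length). EEF1A1, which delivers aminoacyl-tRNA to the ribosome, led with 6495, 6501 and 6985 TPM in knockout libraries, against 6610, 6542 and 6517 TPM in wild-type libraries. The next ranks were held by EEF1G (2150 ± 35.3 TPM in the knockout and 2371 ± 60.0 TPM in the wild type, SD, n = 3 each), EEF2, EIF5A and EIF4A1. The order of those ranks was not the same in all libraries. Within each of the 6 libraries EEF1G was above EEF2, and EIF5A was above EIF4A1. EIF5A was above EEF2 in every knockout library and below it in every wild-type library. It was above EEF1G in knockout library 3 alone. At the low end EEF1AKMT3, a lysine methyltransferase, had 4.72 ± 0.727 TPM in the knockout and 5.66 ± 1.29 TPM in the wild type.

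**Figure D1:**
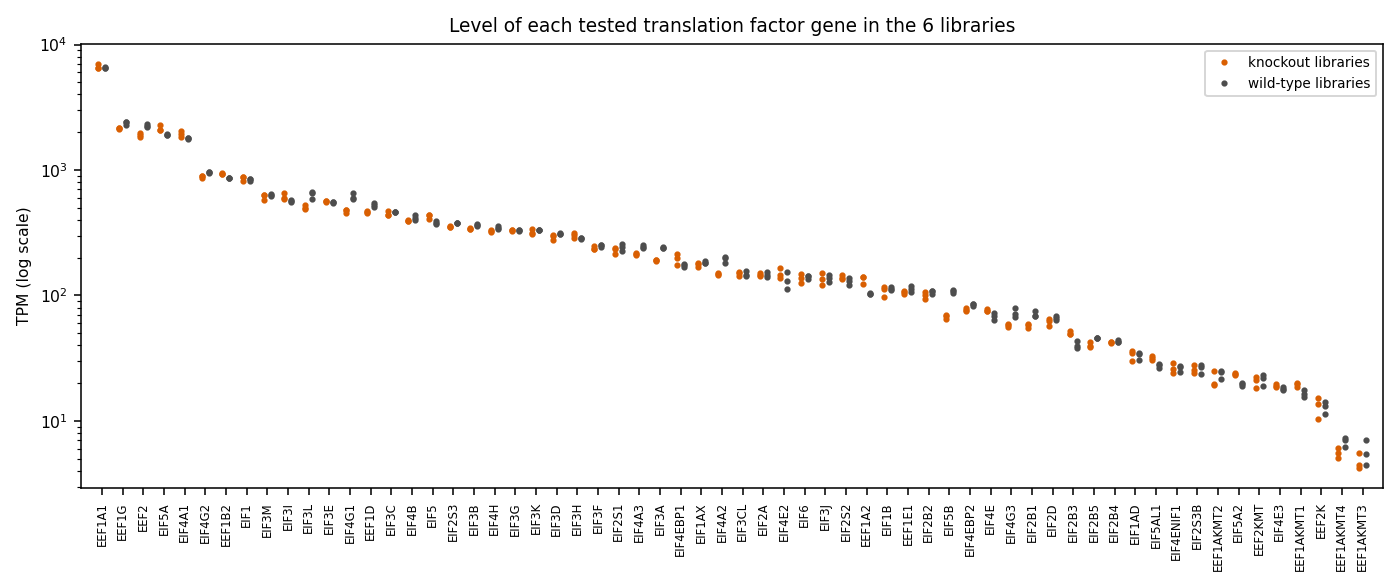
Level of each of the 62 tested genes in TPM on a log axis, genes ordered by their mean over all 6 libraries, 1 point per library, with the 3 knockout libraries left of the 3 wild-type libraries. Mean levels in the knockout run from 6660 TPM for EEF1A1 to 4.72 TPM for EEF1AKMT3, and for most genes both groups lie close together.

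Messenger RNAs for ribosomal proteins and for several translation factors begin with a C followed by an unbroken run of pyrimidines, the terminal oligopyrimidine element, through which mTORC1 signalling and LARP1 control their translation and stability. RefSeq promoter entries on GRCh38.p14 were found for 54 of the 67 genes. A C at the annotated start followed by at least 4 pyrimidines was present in 13 of those 54 (24.1%), against 5.14% of 27305 genes in the same table. Windows of 50 bases are shown here, 30 before and 20 from the annotated start, read on the gene's strand, with the pyrimidine run at the start in capitals. For EEF1B2, the start that holds the run is the second of its annotated starts. The genes shown are the most abundant gene (EEF1A1), the called genes that hold such a run, and, without capitals, the gene with the largest fall and the helicase gene that rose, which have none at this start.
EEF1A1, chr6:73521013-73521062, minus strand: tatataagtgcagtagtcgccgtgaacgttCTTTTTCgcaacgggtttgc
EEF2, chr19:3985444-3985493, minus strand: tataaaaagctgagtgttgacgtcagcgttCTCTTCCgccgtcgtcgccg
EEF1B2, chr2:206159865-206159914, plus strand: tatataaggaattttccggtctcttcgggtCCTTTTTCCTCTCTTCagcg
EIF4A2, chr3:186783547-186783596, plus strand: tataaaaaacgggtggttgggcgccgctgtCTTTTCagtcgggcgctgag
EIF2A, chr3:150546757-150546806, plus strand: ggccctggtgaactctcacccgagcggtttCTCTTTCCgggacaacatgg
EIF5B, chr2:99337359-99337408, plus strand: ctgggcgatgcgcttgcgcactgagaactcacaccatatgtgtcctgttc
EIF4A1, chr17:7572795-7572844, plus strand: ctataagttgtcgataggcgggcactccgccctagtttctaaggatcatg

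Knockout was compared with wild type to find which of these genes differed in mRNA level. With edgeR's quasi-likelihood test over all 15958 tested genes and an adjusted p below 0.05, 13 of the 62 tested genes (20.97%) were higher in the knockout, against 12.1% of all tested genes. Another 11 (17.7%) were lower, against 11.4% of all tested genes. The other 38 did not pass. The median log2 fold change was 0.028 over the 62 genes and 0.0063 over all tested genes. The changes were small: the median size among the 24 called genes was 1.14-fold, against 1.19-fold among all called genes. Of the 24, 8 changed by 1.2-fold or more, and the same share of all called genes was not taken. When the test asked for a change beyond 1.2-fold, EEF1A2 was called higher, against 0.971% of all tested genes, and EIF5B and EIF4A2 lower, against 0.877%.

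Knockout CPM lay above wild-type CPM in every library for 21 of the 62 genes (33.9%), against 19.9% of all tested genes, and below for 14 (22.6%), against 18.7%. The calls for EEF1A2, EIF4A2 and EIF5B held in every alternative run, and those for EIF2B3, EIF3A, EIF3L, EIF4G1, EIF4G3 and EEF2 in all but the test against a 1.2-fold change. With RLE in place of TMM scaling 13 genes were higher and 12 lower (11.5% and 11.9% of all genes). The balance moved with corrections for length: 8 genes were higher and 17 lower with length and GC offsets (10.4% and 10.5% of all genes), and 14 were higher and 7 lower with offsets from effective length (6.67% and 4.29% of all genes). With limma on log2(TPM + 1), another unit and another test, 5 were higher and 11 lower (3.06% and 7.11% of all genes). DESeq2 called 15 higher and 10 lower (9.99% and 10.2% of all genes with an adjusted p). Without wild-type replicate 1 the number of rises was 8. The share of all genes was not taken for runs with 1 library left out. Whether that loss of calls is particular to these genes was not tested.

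**Figure D2:**
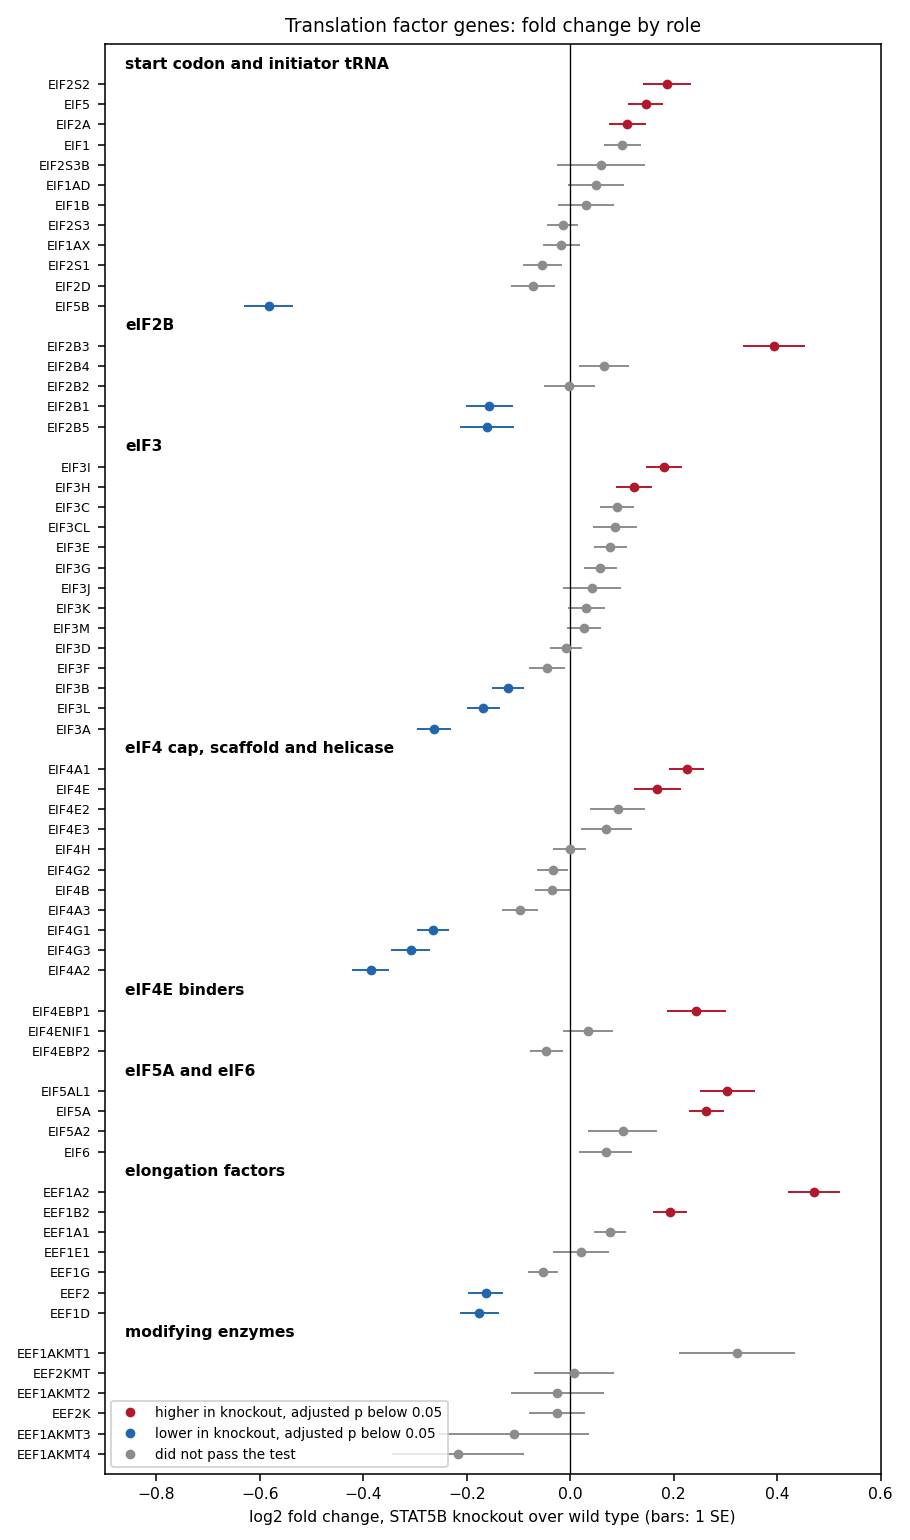
Log2 fold change of knockout over wild type for the 62 tested genes, grouped by role, with bars of 1 SE. Red marks the 13 genes called higher, blue the 11 called lower, and grey the 38 that did not pass. EIF5B lies farthest to the left and EEF1A2 farthest to the right.

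Among the 12 tested genes placed by symbol with start codon selection and initiator tRNA delivery, EIF5B fell and EIF2S2, EIF5 and EIF2A rose. EIF5B, the GTPase that joins the large ribosomal subunit at the end of initiation, had 207, 218 and 191 CPM in knockout libraries, against 292, 323 and 308 CPM in wild-type libraries. The knockout libraries all lay far below the wild-type libraries. This was the largest change among the 62 genes, a log2 fold change of −0.58 (SE 0.047, edgeR adjusted p = 2.77e-06), or a fall to 0.668 of the wild-type level. EIF5B (ENSG00000158417) lies on the plus strand of chromosome 2 from 99337353 to 99401326 (hg38). It overlaps REV1 and TXNDC9 on the other strand, which held counts of 16.9% and 7.69% of its own, and the sources used here do not give whether counting used strand.

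EIF2S2, the beta subunit of eIF2, had 233, 222 and 217 CPM in knockout libraries, against 182, 198 and 209 CPM in wild-type libraries. The lowest knockout library and the highest wild-type library lay close together (log2 fold change 0.19, SE 0.046, edgeR adjusted p = 0.00909). The alpha and gamma subunits did not pass, with log2 fold changes of −0.054 for EIF2S1 and −0.015 for EIF2S3, although EIF2S1 was called lower with length and GC offsets (−0.17, edgeR adjusted p = 0.00402). EIF5, which makes eIF2 hydrolyse its GTP at the start codon, rose by 0.15 (edgeR adjusted p = 0.00672). EIF2A, an alternative carrier of initiator tRNA, rose by 0.11 (edgeR adjusted p = 0.0354). Calls ended without wild-type replicate 1 for EIF2S2, EIF5 and EIF2A (edgeR adjusted p of 0.0541, 0.0544 and 0.149), and without knockout replicate 1 for EIF2S2 and EIF2A (0.0574 and 0.117). That for EIF2A also ended without knockout replicate 2 or wild-type replicate 2 or 3 (0.102, 0.0989 and 0.0591). It ended too with the replicate number as a block (edgeR adjusted p = 0.0622) and in DESeq2 (adjusted p = 0.0903). Genes on the other strand held 45.7% of the count of EIF2S2 (RALY) and 89.8% of that of EIF2A (SERP1).

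EIF1, which guards the accuracy of start codon choice, was the most abundant gene of this group. It had 523, 492 and 531 CPM in knockout libraries, against 481, 469 and 492 CPM in wild-type libraries. The groups touched without overlapping, and the difference did not pass (log2 fold change 0.10, edgeR adjusted p = 0.0560). It passed without knockout replicate 2 (0.0183), as it did in DESeq2 (adjusted p = 0.0331). Its paralogue EIF1B had 56.0, 50.8 and 56.8 CPM in knockout libraries and 54.8, 52.1 and 53.1 CPM in wild-type libraries, which overlapped. The 8 genes of this group that did not pass had log2 fold changes from −0.072 (EIF2D) to 0.10 (EIF1). EIF1AY was under the level tested.

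The 5 subunit genes of eIF2B, the exchange factor of eIF2 and the target of the integrated stress response, moved in different directions. EIF2B3, the gamma subunit, had 51.6, 52.0 and 47.4 CPM in knockout libraries, against 37.4, 41.0 and 36.7 CPM in wild-type libraries. The groups were well apart, and the log2 fold change of 0.39 (SE 0.059, edgeR adjusted p = 0.000309) was the second largest rise among the 62 genes. EIF2B3 lies on the minus strand of chromosome 1 from 44850522 to 44986722 (hg38). EIF2B5, the catalytic epsilon subunit, and EIF2B1, the alpha subunit, each fell by 0.16 (edgeR adjusted p of 0.0413 and 0.0224). EIF2B2, the beta subunit and the most abundant of the complex on TPM, had 60.3, 54.7 and 58.1 CPM in knockout libraries and 57.8, 56.4 and 58.8 CPM in wild-type libraries, which overlapped.

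EIF2B4, the delta subunit, had a log2 fold change of 0.065 and did not pass. In DESeq2 the EIF2B5 call ended (adjusted p = 0.0913). The call also ended without knockout replicate 1 or 2 (edgeR adjusted p of 0.113 and 0.156) and without wild-type replicate 1, 2 or 3 (0.0748, 0.0702 and 0.152). That for EIF2B1 ended without knockout replicate 1 or 3 (0.0719 and 0.0585) and without wild-type replicate 2 (0.12), and 2 genes on the other strand, GTF2H3 and DDX55, held 102% and 64.5% of its count.

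eIF3 is a large assembly that holds the small ribosomal subunit and mRNA together, and 14 genes encode or resemble its subunits. EIF3A, EIF3L and EIF3B fell, EIF3I and EIF3H rose, and 9 did not pass, with log2 fold changes from −0.045 (EIF3F) to 0.090 (EIF3C). EIF3A, the largest subunit and a scaffold of the core, had 626, 641 and 605 CPM in knockout libraries, against 742, 764 and 742 CPM in wild-type libraries. All knockout libraries lay well below the wild-type libraries (log2 fold change −0.26, SE 0.033, edgeR adjusted p = 7.26e-05). EIF3A is on the minus strand of chromosome 10 from 119033670 to 119080823 (hg38).

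EIF3L had 372, 372 and 386 CPM in knockout libraries, against 433, 422 and 413 CPM in wild-type libraries. The groups did not overlap (log2 fold change −0.17, SE 0.032, edgeR adjusted p = 0.00173). ANKRD54 on the other strand held 10.3% as many counts as EIF3L. EIF3B fell by 0.12 (edgeR adjusted p = 0.0128). EIF3I, which binds EIF3B, rose by 0.18 (edgeR adjusted p = 0.00182), and EIF3H rose by 0.12 (edgeR adjusted p = 0.0181). The EIF3B call ended without knockout replicate 1 or wild-type replicate 3 (edgeR adjusted p of 0.0508 and 0.0648). That for EIF3H ended without knockout replicate 1 or wild-type replicate 1 or 2 (0.0860, 0.0720 and 0.0782), and UTP23 on the other strand held 26.5% of its count.

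Per length, the subunit genes were not at equal levels. The lowest of the 14 were EIF3J, a loosely attached subunit, with 150.3, 135 and 120.2 TPM in knockout libraries and 128, 137 and 145 TPM in wild-type libraries, and EIF3CL, a copy of EIF3C, with 143, 154 and 150 TPM in knockout libraries and 144, 147 and 157 TPM in wild-type libraries. Among the other 12 the lowest in knockout libraries was EIF3A, with 193, 192 and 187 TPM, and the highest had 634, 585 and 657 TPM (EIF3M, EIF3I and EIF3I). In wild-type libraries the lowest of these 12 had 240, 242 and 238 TPM (EIF3A, EIF3F and EIF3A) and the highest 652, 665 and 636 TPM (EIF3L, EIF3L and EIF3M). EIF3M, the most abundant over all libraries, had 285, 279 and 273 CPM in knockout libraries and 265, 282 and 275 CPM in wild-type libraries, which overlapped. EIF3C and its near-identical copy EIF3CL did not pass, with 520, 526 and 505 CPM for EIF3C in knockout libraries, against 492, 495 and 470 CPM in wild-type libraries (edgeR adjusted p = 0.0618, and 0.0272 without knockout replicate 3). EIF3CL had 275, 302 and 285 CPM in knockout libraries and 259, 267 and 286 CPM in wild-type libraries. The authors' counting may split reads between these 2 genes, and counted together they had a log2 fold change of 0.088 (edgeR adjusted p = 0.0545).

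In the eIF4 group, which binds the cap and unwinds the leader, the genes of the scaffold and of 1 helicase fell while those of the other helicase and of the cap binder rose. EIF4A2, a paralogue of the main helicase that has also been tied to microRNA-mediated repression, had 155, 166 and 156 CPM in knockout libraries, against 209, 209 and 206 CPM in wild-type libraries. All knockout libraries were lower (fold 0.765, log2 fold change −0.39, SE 0.035, edgeR adjusted p = 6.82e-06). EIF4A2 is on the plus strand of chromosome 3 from 186783205 to 186789900 (hg38), and RFC4 on the other strand held 28.8% of its count. EIF4A1, the main helicase, had 1571, 1677 and 1674 CPM in knockout libraries, against 1385, 1414 and 1413 CPM in wild-type libraries. The groups did not overlap (log2 fold change 0.22, SE 0.033, edgeR adjusted p = 0.000274).

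EIF4G1, the main scaffold between the cap and the ribosome, had 986, 1027 and 1019 CPM in knockout libraries, against 1235, 1209 and 1200 CPM in wild-type libraries. EIF4G3, its close paralogue, had 158, 156 and 146 CPM in knockout libraries, against 195, 190 and 185 CPM in wild-type libraries. Both genes were lower in every knockout library, with log2 fold changes of −0.27 for EIF4G1 (SE 0.031, edgeR adjusted p = 4.44e-05) and −0.31 for EIF4G3 (SE 0.038, edgeR adjusted p = 6.56e-05). EIF4G2, a relative that lacks the eIF4E-binding part, had 1717, 1789 and 1795 CPM in knockout libraries, against 1814, 1801 and 1813 CPM in wild-type libraries, and did not pass (log2 fold change −0.034, edgeR adjusted p = 0.462).

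EIF4E, the cap-binding protein, had 72.0, 73.4 and 74.6 CPM in knockout libraries, against 62.0, 65.7 and 68.0 CPM in wild-type libraries. The groups did not overlap (log2 fold change 0.17, SE 0.046, edgeR adjusted p = 0.0164). The call ended without wild-type replicate 1 or 2 (edgeR adjusted p of 0.0975 and 0.0506), and 5 EIF4E pseudogenes held 21.7% to 31.4% as many counts as the gene. EIF4E2, a cap-binding relative that represses translation, had 80.4, 94.7 and 85.5 CPM in knockout libraries and 80.5, 83.7 and 80.8 CPM in wild-type libraries, which overlapped. EIF4E3 had 40.8, 41.7 and 41.7 CPM in knockout libraries, against 39.3, 39.6 and 39.5 CPM in wild-type libraries, and did not pass (log2 fold change 0.070, edgeR adjusted p = 0.349). The 6 tested genes of this group that did not pass ranged from −0.097 (EIF4A3, a helicase of the exon junction complex) to 0.091 (EIF4E2). EIF4A3, at an edgeR adjusted p of 0.0541, passed without knockout replicate 3 (edgeR adjusted p = 0.0480). It also passed with RLE scaling, a stricter filter, and length and GC offsets (edgeR adjusted p of 0.0444, 0.0451 and 0.0019). On log2(TPM + 1) it passed as well (limma adjusted p = 0.0192).

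Among the proteins that hold eIF4E away from eIF4G, EIF4EBP1 rose. This repressor, which mTORC1 phosphorylates and so releases from eIF4E, had 82.3, 69.4 and 76.7 CPM in knockout libraries, against 65.7, 62.1 and 64.8 CPM in wild-type libraries. The knockout libraries spread more widely but all lay above the wild-type libraries (log2 fold change 0.24, SE 0.057, edgeR adjusted p = 0.00705). EIF4EBP2 had 371, 387 and 379 CPM in knockout libraries and 395, 383 and 397 CPM in wild-type libraries, which overlapped (log2 fold change −0.046, edgeR adjusted p = 0.323). EIF4ENIF1, the eIF4E transporter, had a log2 fold change of 0.034 and did not pass. EIF4EBP3 and EIF4E1B, an oocyte-type eIF4E gene, had 5 and 3 counts, each in a single knockout library, and were not tested. EIF4EBP3 overlaps the protein-coding gene ANKHD1-EIF4EBP3 on the same strand, which held a mean of 1689 counts per library. How counting shared reads between them was not tested.

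**Figure D3:**
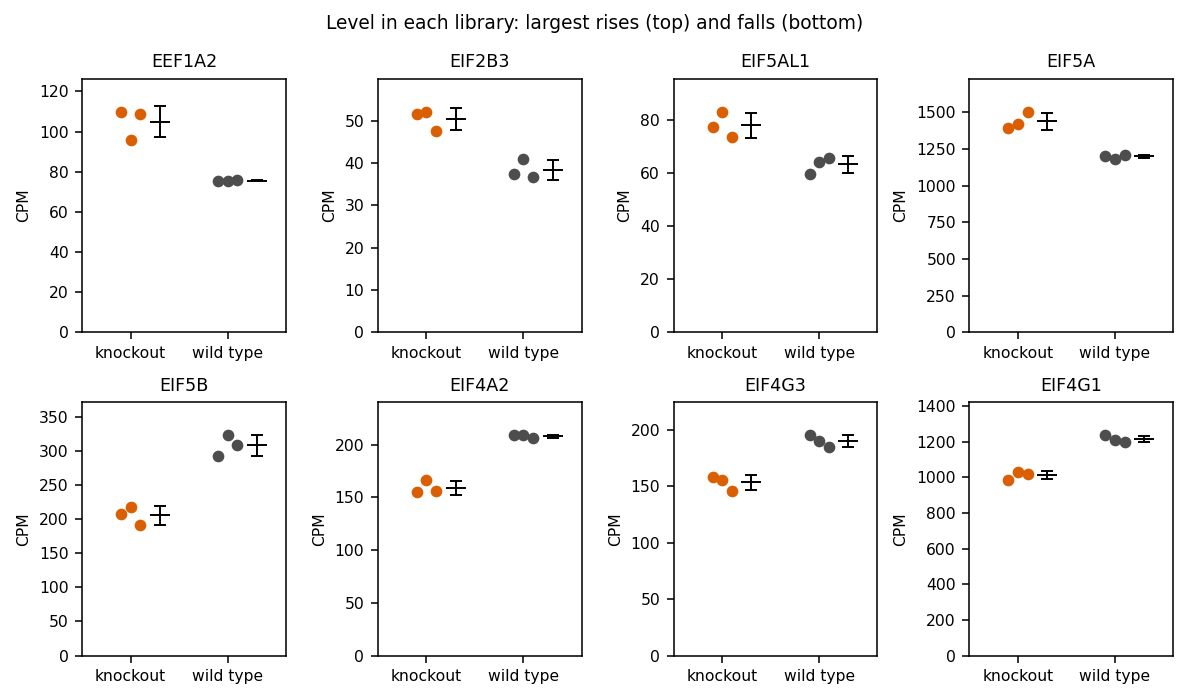
CPM in each library for the 4 called genes with the largest rises (top) and the 4 with the largest falls (bottom), with each y axis starting at 0. Knockout libraries are on the left of each panel, and bars beside the points are the mean and SD of 3 libraries. In all 8 panels the groups do not overlap.

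EIF5A and its copy EIF5AL1 rose. EIF5A, a hypusine-bearing factor that helps ribosomes through peptide sequences that bond slowly, had 1393, 1419 and 1502 CPM in knockout libraries, against 1204, 1184 and 1208 CPM in wild-type libraries. The groups were well apart (log2 fold change 0.26, SE 0.034, edgeR adjusted p = 9.38e-05). EIF5AL1 had 77.7, 83.2 and 73.6 CPM in knockout libraries, against 59.9, 64.3 and 65.8 CPM in wild-type libraries (log2 fold change 0.30, SE 0.053, edgeR adjusted p = 0.000949). It is a near copy of EIF5A, so its counts may hold reads of EIF5A, and both counted together had a log2 fold change of 0.26 (edgeR adjusted p = 7.15e-05). EIF5A2 had 32.1, 28.4 and 29.03 CPM in knockout libraries and 26.6, 29.1 and 27.6 CPM in wild-type libraries, which overlapped (edgeR adjusted p = 0.303). EIF6, which keeps the large ribosomal subunit from joining too early, had a log2 fold change of 0.068 and did not pass.

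Of the 7 elongation factor genes, EEF1A2 and EEF1B2 rose and EEF2 and EEF1D fell. EEF1A2, the eEF1A form that is typical of neurons and muscle, had 110, 95.9 and 109 CPM in knockout libraries, against 75.6, 75.2 and 75.8 CPM in wild-type libraries. This was the largest rise among the 62 genes, a log2 fold change of 0.47 (SE 0.050, edgeR adjusted p = 2.31e-05), or 1.39-fold. EEF1A2 (ENSG00000101210) lies on the minus strand of chromosome 20 from 63488012 to 63499322 (hg38). EEF1A1 had 7531, 7757 and 8140 CPM in knockout libraries, against 7392, 7423 and 7400 CPM in wild-type libraries. These groups did not overlap, but the difference did not pass (log2 fold change 0.077, edgeR adjusted p = 0.0997). It passed without knockout replicate 1 (edgeR adjusted p = 0.0338) and in DESeq2 (adjusted p = 0.0372), and EEF1A1 pseudogenes held 15.1% to 18.2% as many counts as the gene.

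EEF1B2, EEF1D and EEF1G belong to eEF1B, the complex that recharges eEF1A with GTP. EEF1B2, an exchange subunit, had 398, 405 and 380 CPM in knockout libraries, against 340, 347 and 348 CPM in wild-type libraries (log2 fold change 0.19, SE 0.033, edgeR adjusted p = 0.000759). EEF1D, the other exchange subunit, had 179, 196 and 185 CPM in knockout libraries, against 217, 209 and 207 CPM in wild-type libraries (log2 fold change −0.18, SE 0.038, edgeR adjusted p = 0.00393). The exchange subunits thus moved in opposite directions without overlap, while EEF1G, a structural subunit, did not pass (log2 fold change −0.053, edgeR adjusted p = 0.225). NDUFS1 on the other strand held 60.1% as many counts as EEF1B2, and TIGD5 on the other strand held 11.3% as many as EEF1D. EEF2, which moves the ribosome along the mRNA after each bond, had 3276, 3192 and 3422 CPM in knockout libraries, against 3766, 3581 and 3726 CPM in wild-type libraries. Every knockout library was lower (log2 fold change −0.16, SE 0.034, edgeR adjusted p = 0.00315). EEF1E1, which sits in the multi-synthetase complex, had a log2 fold change of 0.021 and did not pass.

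The 6 tested enzymes that modify elongation factors did not pass. EEF1AKMT2, the most abundant of them on TPM, had 14.7, 14.8 and 16.5 CPM in knockout libraries and 13.9, 16.0 and 16.6 CPM in wild-type libraries, which overlapped. EEF1AKMT1, another eEF1A lysine methyltransferase, had 9.92 ± 1.09 CPM in the knockout and 7.95 ± 0.493 CPM in the wild type (SD, n = 3 each; log2 fold change 0.32, edgeR adjusted p = 0.0516). It passed without knockout replicate 3 (edgeR adjusted p = 0.0352). EEF2K, the kinase that inhibits eEF2, had 44.1 ± 1.19 CPM in the knockout and 44.8 ± 2.01 CPM in the wild type. Readthrough genes EEF1AKMT4-ECE2 and EEF1E1-BLOC1S5 had 0 counts and were not tested.

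The make-up of paralogue families was read as shares of the summed TPM of the family. EEF1A2 made up 2.11%, 1.86% and 1.96% of the eEF1A pair in knockout libraries, against 1.54%, 1.58% and 1.55% in wild-type libraries. EIF4A2 made up 7.32%, 7.22% and 6.69% of the pair with EIF4A1 in knockout libraries, against 10.3%, 9.89% and 9.30% in wild-type libraries. EIF4G1 made up 33.1%, 33.4% and 33.4% of the 3 eIF4G genes in knockout libraries, against 38.8%, 36.9% and 36.7% in wild-type libraries. EIF4EBP1 made up 73.8%, 69.5% and 71.7% of the pair with EIF4EBP2 in knockout libraries, against 67.4%, 67.1% and 67.2% in wild-type libraries. These 4 shares did not overlap between groups on TPM or on CPM. Each of these families holds a called gene, so the shares in part restate those calls. Shares were not taken in other gene families. Of all tested genes singly, 19.9% lay above and 18.7% below in every knockout library on CPM. Those of EIF4E, EIF4E2 and EIF3CL overlapped on both scales, while those of EIF5A2 (higher on TPM), EIF1B and EIF4G3 (lower on CPM) were separate on 1 scale only.

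**Figure D4:**
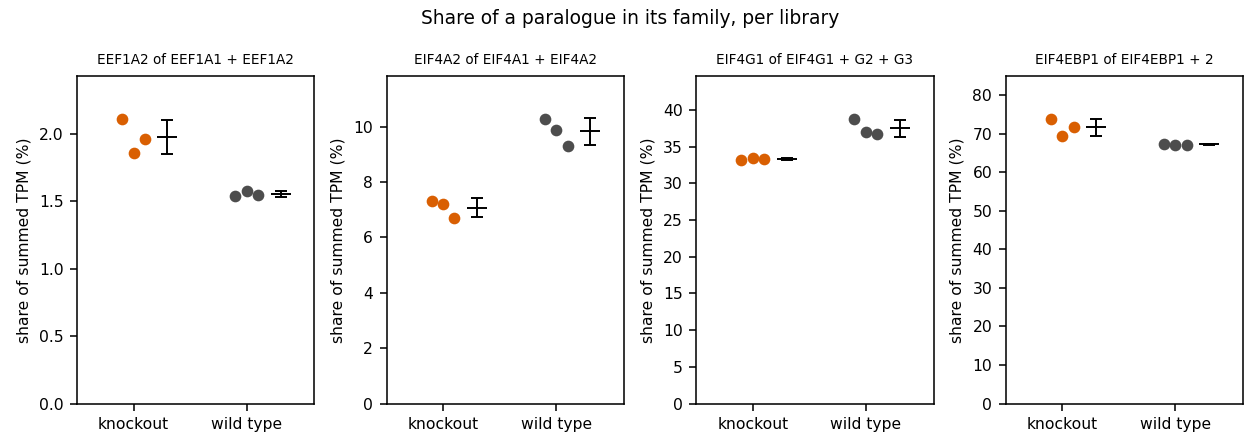
Share of a paralogue in the summed TPM of its family, in percent, for each library, with knockout libraries on the left and each y axis starting at 0. Bars beside the points are the mean and SD of 3 libraries. The EEF1A2 and EIF4EBP1 shares are higher in every knockout library, and the EIF4A2 and EIF4G1 shares are lower.

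Summed over a role, the levels differed little. The eIF5A and eIF6 genes summed to 2260, 2280 and 2491 TPM in knockout libraries, against 2126, 2073 and 2109 TPM in wild-type libraries, most of it EIF5A, and the groups were separate on TPM and on CPM. The eIF3 genes summed to 5083, 4918 and 5137 TPM in knockout libraries, against 5257, 5275 and 5227 TPM in wild-type libraries, lower on both scales (log2 ratios −0.058 on TPM and −0.020 on CPM). The eIF2B and eIF4 sums were lower in every knockout library on TPM (log2 ratios −0.079 and −0.052) but overlapped on CPM. The median log2 fold change of all tested genes on log2(TPM + 1) was −0.059, close to these 3 TPM ratios. The sums for start codon factors, eIF4E binders, elongation factors, modifying enzymes and all 67 genes overlapped on both scales, the last at 27453, 27193 and 28573 TPM in knockout libraries and 28488, 28148 and 28327 TPM in wild-type libraries.

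Genes with a promoter entry were divided by whether a pyrimidine run lies at an annotated start. Too few of them were called to show whether the run goes with a direction. The classes rest on annotated starts alone. Of all tested genes, 12.1% were called higher and 11.4% lower. Of the 13 tested genes with a pyrimidine run at an annotated start, EIF2A and EEF1B2 rose, EIF4A2 and EEF2 fell, and 9 did not pass, with a median log2 fold change of −0.0085. Of the 36 tested genes whose promoter entries lack it, 7 rose, 6 fell and 23 did not pass, with a median of 0.026. Another 13 tested genes, EEF1A2 and EIF3A among them, had no promoter entry and could not be placed. Of these, 4 rose, 3 fell and 6 did not pass. Other letters were looked for on both strands within 250 bases before to 50 bases after each start. CACGTG, the E-box bound by MYC and its relatives, was in 14 of the 54 promoters (25.9%), against 8.77% of all genes in the table. TTCNNNGAA, the core letters of STAT5-type sites, was in 5 (9.26%), against 9.38%. These were EIF3I, EIF4E, EEF1AKMT4, its readthrough EEF1AKMT4-ECE2 and EIF4EBP3. TATAAA was in 3 (5.56%), against 14.0%, and CCAAT in 25 (46.3%), against 39.7%. None of these motifs lies inside another, each was counted on its own, and a match is a description of the window, not a site shown to be bound.

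Neighbouring genes moved with some of the called genes. For each gene the median log2 fold change of the 50 nearest tested genes on its chromosome was taken. It had the sign of the gene's own change for 9 of the 13 that rose (69.2%), against 72.7% of all genes called higher, and for 9 of the 11 that fell (81.8%), against 66.3% of all genes called lower. It was 0.17 for EIF4A1 and EIF5A, which lie close together on chromosome 17, 0.15 for EIF2B3 and 0.14 for EIF3I on chromosome 1. It was −0.12 for EEF1D and −0.11 for EIF4G1 and EIF2B5, which lie close together on chromosome 3. For EIF3I, EIF4A1, EIF2B5 and EEF1D the gene's own change was within 0.06 of that median. The largest changes stood away from theirs: −0.58 against −0.012 for EIF5B, 0.47 against −0.021 for EEF1A2, and −0.39 against −0.079 for EIF4A2. The part of such regional shifts in the other changes was not tested.

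**Figure D5:**
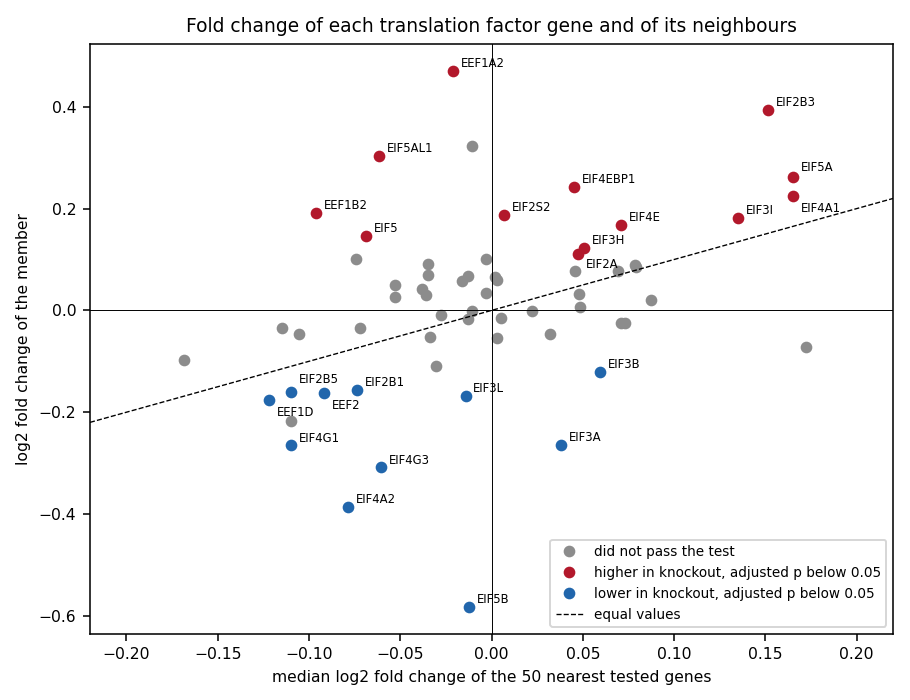
Log2 fold change of each of the 62 tested genes (y axis) against the median log2 fold change of its 50 nearest tested genes (x axis), with called genes named and a dashed line where both values are equal. EIF5B, EEF1A2 and EIF4A2 lie far from the line, and EIF3I, EIF4A1 and EEF1D lie near it.

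Gene length differed between the directions, here and among all genes. The median deposited length was 1542 bases for the 13 genes that rose and 2295 bases for the 11 that fell. Among all tested protein-coding genes it was 2060 bases for those called higher and 4233 bases for those called lower, and 2474 bases for those not called. The part of this length trend in the members' changes was not tested beyond offsets that take out each library's trend with length and GC content. With those offsets the calls of EIF2A, EIF5, EIF3H, EIF4E and EEF1B2 ended, with log2 fold changes from 0.021 (EIF3H) to 0.091 (EIF4E) and edgeR adjusted p from 0.0657 to 0.726. Falls were then called for EIF2S1 (−0.17), EIF4A3 (−0.16), EIF3F (−0.12), EIF2D (−0.12) and EEF1G (−0.092), with edgeR adjusted p from 0.0019 to 0.0494. EIF3M, at 0.026 without the offsets, was called lower at −0.10 (edgeR adjusted p = 0.0255).

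The deposited length of a gene varied between libraries for 57 of the 62 tested genes. In files of this format it is usually the mean over a gene's transcripts weighted by their abundance. It was shorter in every knockout library for 11 of them, against 8.15% of the 13158 tested genes whose length varied, and longer in none, against 4.64%. EIF5A2 had 2732, 2350 and 2433 bases in knockout libraries, against 2844, 3232 and 2924 bases in wild-type libraries. EIF5 had 1886, 1946 and 1936 bases in knockout libraries, against 2044, 2087 and 2080 bases in wild-type libraries. EIF4A2 had 1775, 1799 and 1817 bases in knockout libraries, against 1837, 1858 and 1974 bases in wild-type libraries. The other 8 were EIF4E3, EIF3B, EEF1D, EIF3F, EIF3H, EIF4B, EEF1A1 and EIF3A, whose mean length in the knockout was 0.929 (EIF4E3) to 0.990 (EIF3A) of that in the wild type. With offsets from the effective lengths, 6 calls ended (edgeR adjusted p from 0.0532 to 0.941). The log2 fold changes there were 0.19 for EIF2S2 and −0.21 for EIF2B1, as large as or larger than without the offsets. They were smaller for EIF2A (0.091), EIF2B5 (−0.095), EEF1D (−0.087) and EIF3B (−0.0053). With the same offsets EIF5A2 passed at 0.36, EIF3E at 0.12 and EEF1A1 at 0.11 (edgeR adjusted p of 0.0107, 0.0469 and 0.0297). On log2(TPM + 1) with limma, where the median of all genes lay at −0.059, the rises of EIF2A, EIF2S2, EIF3H, EIF3I, EIF4A1, EIF4E, EIF4EBP1, EIF5A and EIF5AL1 and the falls of EIF2B5 and EIF3B did not pass (limma adjusted p from 0.0559 to 0.992).

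Genes that work beside these factors were counted in the same fit, in 7 lists. Of all tested genes, 12.1% were called higher and 11.4% lower. Results of the alternative runs were not taken for the list genes. Of 11 genes of eIF2-alpha phosphorylation, EIF2AK1 (edgeR adjusted p = 0.0346), PPP1R15A and PPP1R15B rose, EIF2AK2 and GCN1 fell, and 6 did not pass. PPP1R15A, which directs the phosphatase to eIF2-alpha under stress, had 38.3, 23.3 and 29.03 CPM in knockout libraries, against 21.2, 19.6 and 21.7 CPM in wild-type libraries (log2 fold change 0.53, edgeR adjusted p = 0.0105). PPP1R15B, its constitutive relative, rose by 0.20 (edgeR adjusted p = 0.00045). Of 12 genes that signal to the factors, RHEB and MKNK1 rose, MTOR, RPTOR, LARP1 and TSC1 fell, and 6 did not pass. MKNK1 lay close to the threshold (edgeR adjusted p = 0.0494). LARP1, which binds terminal oligopyrimidine mRNAs, had 576, 621 and 596 CPM in knockout libraries, against 694, 685 and 677 CPM in wild-type libraries (log2 fold change −0.20, edgeR adjusted p = 0.000807).

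GSPT2, a release factor gene, was the 1 of 8 release and recycling genes that passed (log2 fold change 0.33, edgeR adjusted p = 0.0124). Of 9 genes for the hypusine and diphthamide marks of eIF5A and eEF2, DPH1 and DPH5 rose (edgeR adjusted p of 0.0232 and 0.0341) and 7 did not pass. Of 7 poly(A)-binding and helicase genes PAIP2 rose and DDX3X fell, and of 10 mitochondrial translation factor genes TUFM and MTRFR rose and GFM1 fell. The 4 selenocysteine genes did not pass. The list medians of log2 fold change ran from −0.069 (signalling) to 0.12 (hypusine and diphthamide), against 0.0063 over all tested genes.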

How the data were processed

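Messenger RNA libraries of 3 STAT5B knockout and 3 wild-type HEK293 samples, grouped by the genotype label, were analysed from 1 deposited file per library. Per the submitters' processing notes, the tools were FastQC, fastp, DRAGEN and Picard, and the build was hg38; versions and roles are not given there. The sources used here give neither the annotation release nor whether counting used strand. Per the file headers, the deposited values were estimated counts, of which 7.12% to 7.64% were not whole, and TPM, which summed to 1000000 per library, with lengths and effective lengths in bases.

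Estimated counts were rounded and tested with edgeR 4.0.16 in R 4.3.3: filterByExpr (minimum count 10, minimum total 15), TMM scaling, the quasi-likelihood F test of group, and Benjamini-Hochberg adjustment over 15958 genes at 0.05. SE is the log2 fold change divided by the square root of F. The biological coefficient of variation was 4.43%. On simulated counts for this comparison over 15958 genes, 85% of 1.5-fold and 97% of 2-fold changes were recovered, with 11 false calls. The simulation gave all genes the same dispersion and held no smaller changes. Symbols came from a name table, and positions from GENCODE release 29 on the same build. Pseudogenes among the 233 symbols with these prefixes numbered 155.

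The members, role groups and lists were chosen with earlier results of these data known. Named with values in every library are the 8 largest rises and 8 largest falls among called members, the most abundant member of each role on TPM, and fixed paralogue pairs, with every other called member named. Further members named for their values were chosen after these were seen. Alternatives were RLE scaling, other filters, a test against a 1.2-fold change, a replicate block, length offsets, length and GC offsets (splines of 5 degrees of freedom, fitted where mean log2 CPM was at least 3), limma-voom and limma 3.58.1 on log2(TPM + 1), DESeq2 1.42.0, each library left out, and, added after seeing the data, near-identical copies counted together.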

Additional observations from a re-analysis of the deposited data

How the results depend on the processing

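The 13 rises became 1 when tested against a 1.2-fold change, 8 with length and GC offsets, and 5 on log2(TPM + 1), and 8 to 15 when 1 library was left out. The 11 falls became 2 against a 1.2-fold change, 7 with effective-length offsets and 17 with length and GC offsets, where all 11 were among the 17, and 8 to 11 when 1 library was left out. The cause was not tested, and shares of all genes were not taken for the runs with 1 library left out. The other settings gave 12 to 16 rises and 10 to 12 falls, with 12 rises and 11 falls when EIF3C and EIF3CL, EIF5A and EIF5AL1, and EIF2S3 and EIF2S3B were counted together. EIF3M was reversed to −0.10 with length and GC offsets. Summed on CPM in place of TPM, the log2 ratios of knockout over wild type were −0.0039 for eIF2B (−0.079 on TPM), −0.020 for eIF3 (−0.058), 0.0023 for eIF4E binders (0.073), 0.25 for eIF5A and eIF6 (0.16), −0.00036 for elongation factors (−0.049) and 0.0039 for all members (−0.030).

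The labels state no pairing by replicate number. Same-numbered samples deviated with correlations of −0.012, 0.11 and 0.037, and differently numbered samples with −0.089 to 0.049. Knockout libraries 2 and 3 correlated best with their own number, and knockout library 1 with another. So few libraries cannot decide whether the numbers pair the samples. With the replicate number as a block, 13 members were higher and 11 lower, with EIF2A lost and EIF1 gained. With 3 libraries per group, 85% of 1.5-fold changes were recovered in simulated counts. Smaller changes, such as the median of 1.14-fold among the called members, were not simulated. Low genes such as EEF1AKMT3 and EEF1AKMT4, with SE of 0.15 and 0.13 on the log2 scale, are read least firmly.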

Other observations

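Pseudogenes of these factors took some of the reads. Of 154 pseudogenes whose symbols carry the same prefixes, without 1 of an EIF2AK gene, 86 had a count, and together they held 4.59% to 5.62% as many counts as the 67 protein-coding genes. Pseudogenes of EIF3F held 14.9% to 18.5% as many counts as their parent, those of EEF1B2 10.5% to 12.9%, and those of EIF2S2 9.73% to 12.2%. EIF4A2 and EIF3L pseudogenes held less than 0.5% of their parents in each library. A gene on either strand overlapped 43 of the 67 members and held counts, and for 23 of them such genes held over 10% of the member's own count. These 23 include 3 untested members: EIF4EBP3, with 5 counts, and EEF1AKMT4-ECE2 and EEF1E1-BLOC1S5, whose 0 counts give no defined share.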
